A study of Mus musculus with 11 samples.

Results

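The Hoxc genes are the homeobox genes of the HoxC cluster, 1 of the 4 Hox clusters of the mouse. The 7 described here were chosen by symbol among the 13720 genes with values: Hoxc4, Hoxc5, Hoxc6, Hoxc8, Hoxc9, Hoxc10 and Hoxc11. RNA was sequenced from E10 hindlimb (HL) buds of mice, and each of the 11 libraries held both HL buds of 1 embryo. The 5 WT and the 6 KO libraries came in 2 sets. The Ovation set, made with an amplification step, held WT S_252 and WT S_254 and KO S_258, KO S_280 and KO S_284, and the NEBNext set held WT 1, WT 3 and WT 4 and KO 2, KO 3 and KO 4.

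KO embryos lacked Meis1 and Meis2, which encode TALE homeodomain factors that bind DNA with Hox and Pbx proteins. The Meis2 allele was conditional and the Meis1 allele was either conditional or deleted in the whole animal. HoxB6CreER was switched on with 4-hydroxy-tamoxifen before the buds formed. This driver acts in the posterior part of the forelimb and in the lateral plate behind it, the HL region included. Cells of other origin in a bud, such as blood or neural crest cells, therefore need not be recombined. NEBNext KO embryos were labelled HoxB6CreER;Meis1Ko;Meis2KO and their WT embryos WT only. Ovation KO embryos were labelled M1koM2ko with no driver named, WT S_252 M1wtM2wt, and WT S_254 M1hetM2wt, so that WT S_254 carried 1 mutant Meis1 allele. Embryos of the NEBNext set were at about 30 to 31 somites. WT embryos of the Ovation set were both females of litter 1 at 30 to 32 somites and its KO embryos males of litters 1, 3 and 4 at 30 to 33 somites, so sex and genotype cannot be told apart there. The mice were of mixed genetic background.

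Hox genes encode transcription factors that give cells their position along the head-to-tail axis, and genes at the 3′ end of each cluster are switched on earlier and further forward than genes at the 5′ end. In the limb, Hoxa and Hoxd genes have the best known roles in the proximo-distal pattern. Hoxc genes are known there chiefly for their position: Hoxc4 and Hoxc5 mark the forelimb level, while Hoxc10 and Hoxc11 mark the HL level.

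Values were CPM, counts scaled to the library total, that the authors had normalized and batch-corrected, and differences were tested with limma on log2(CPM + 0.5) over 12996 genes, with the library set as a term and Benjamini-Hochberg adjusted p-values. CPM summed to 75.5% to 80.6% of the full scale per library over the genes given, no value was 0, and sequencing depth is unknown. All 9 HL bud markers were present, Pitx1, Tbx4 and Isl1 among them, with sums from 729 to 994 CPM for WT and from 789 to 1117 for KO. Meis1 (125 ± 17.3 CPM in WT, 134 ± 19.3 in KO, SD) and Meis2 (216 ± 25.1 and 228 ± 35.8) did not pass the test. A value for a whole gene holds the reads of exons that were not deleted, so neither checks the genotype. In whole buds, fewer cells of a type and less RNA per cell cannot be told apart.

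None of the 7 Hoxc genes passed the threshold of an adjusted p of 0.05 between KO and WT (limma), where 2.09% of all tested genes did, and none passed in the Ovation or the NEBNext libraries alone, where 1.15% and 0.0231% did. At an unadjusted p under 0.05, 4 of the 7 were higher in KO (Hoxc4, Hoxc5, Hoxc8 and Hoxc10) and none lower, where 7.31% of all genes were higher. Hoxc4, at the 3′ end of the cluster, had the largest difference (1.68-fold, adjusted p = 0.0575), and its lowest KO library lay above its highest WT library. Hoxc11, the most 5′ of the 7, was the one with a lower mean in KO (0.86-fold, adjusted p = 0.754), a difference that was near 0 without KO 3.

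The members lie on the plus strand of chromosome 15 (GRCm38, GENCODE M21 annotation), from 5′ to 3′ in the order Hoxc11, Hoxc10, Hoxc9, Hoxc8, Hoxc6, Hoxc5 and Hoxc4. Hoxc11 spans 102954427 to 102957708 and Hoxc10 spans 102966796 to 102971893. Hoxc9 spans 102976439 to 102985099 and Hoxc8 spans 102990607 to 102994111. Hoxc6 spans 102998257 to 103011881 and Hoxc4 spans 103018934 to 103036852. The main Hoxc5 transcript spans 103013815 to 103017429, and a second one starts inside Hoxc10 at 102967443. Through it Hoxc5 and Hoxc10 share 166 exonic bases, 5.4% of Hoxc5 and 8.7% of Hoxc10, and 3.12% of Hoxc5 and 5.12% of Hoxc10 75-base stretches occur in both, so a small share of their reads could be split between them. The study's counting used an older annotation, whose transcripts may differ. Hoxc12, Hoxc13 and the microRNA genes Mir196a-2 and Mir615 of the same cluster were not analysed here.

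Mir196a-2 lies between Hoxc10 and Hoxc9 (its mature RNA at 102973365 to 102973386), and miR-196a is known to cleave Hoxb8 mRNA and to pair with Hoxc8. Its mature sequence (RefSeq, GRCm38.p6) is shown because the RNA is made from within the cluster and pairs with a member's mRNA, with the seed, bases 2 to 8, in capitals. Below it stand the 3 matches to the seed, ACTACCT, in the longer of both annotated Hoxc8 transcripts, Hoxc8-202, with the 7 matching bases in capitals. The other Hoxc8 transcript held 2 of them, and no transcript of the other 6 genes held any.
mmu-miR-196a-5p: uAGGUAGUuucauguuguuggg
Hoxc8-202, first match: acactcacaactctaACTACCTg
Hoxc8-202, second match: ataaatctttaacatACTACCTa
Hoxc8-202, last match: ccagcgtattttatcACTACCTa
Of 12982 tested genes with annotated transcripts, 23.1% held at least 1 such match, searched on the transcript strand. Small RNAs were not measured, and a match is a description, not a site.

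For Hoxc4, the member with the largest difference, the 250 bases before the RefSeq start are shown (GRCm38.p6, plus strand, chr15:103034145-103034394). The Meis hexamer TGACAG and the Pbx-Hox octamer TGATNNAT were searched on both strands of these bases and the 50 that follow, with N for any base. Neither was found, while 19.2% and 8.85% of 32851 promoters of the same length held them.
Hoxc4 promoter: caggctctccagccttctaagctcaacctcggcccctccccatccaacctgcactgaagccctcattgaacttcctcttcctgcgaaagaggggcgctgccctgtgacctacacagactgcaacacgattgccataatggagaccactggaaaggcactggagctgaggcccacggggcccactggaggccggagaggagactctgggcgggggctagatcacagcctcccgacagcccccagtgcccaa
These letters alone say nothing of whether a factor binds near Hoxc4. Another annotated Hoxc4 transcript starts further 5′, at 103018934, and the bases before that start were not searched. Promoters of the other 6 members were not analysed here.

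Hoxc10 was by far the most abundant of the 7. Per kilobase of exonic length, its WT level was 34.4 ± 4.98 CPM (SD, n = 5), 4.77 times that of Hoxc8 at 7.21 ± 1.40, and their WT ranges did not overlap. Hoxc6 (5.59 ± 0.976), Hoxc9 (4.84 ± 0.915), Hoxc11 (3.88 ± 0.985), Hoxc4 (3.63 ± 0.658) and Hoxc5 (2.68 ± 0.393) followed, and the WT ranges of all neighbours below Hoxc10 overlapped. Hoxc11 and Hoxc4 stood close together in WT. Per kilobase, Hoxc11 stood above Hoxc4 in 2 of 5 WT libraries and in 0 of 6 KO libraries. On the CPM scale Hoxc10 exceeded 79.6% of all genes in WT, and the other 6 exceeded 34% to 53.4%. Hoxc10 made up 40.4% to 50.9% of the summed CPM of the 7 genes in the 11 libraries.

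Hoxc4 encodes a group 4 Hox protein and is expressed further forward than the other members. It was at 8.47 and 8.66 CPM in the Ovation WT libraries S_252 and S_254, and at 7.29, 11 and 11.1 CPM in the NEBNext libraries WT 1, WT 3 and WT 4. In KO it was at 13.9, 13.1 and 20.6 CPM in S_258, S_280 and S_284, and at 12.7, 23.4 and 13.2 CPM in KO 2, KO 3 and KO 4. All 6 KO libraries thus lay above all 5 WT libraries, which 1.82% of tested genes showed in this direction. KO 3 and KO S_284 stood well above the other KO libraries. The log2 fold change was 0.75 (SE 0.19, 95% confidence interval 0.35 to 1.15), with 1.82% of genes having a higher one. Fitted by set it was 0.82 for Ovation (adjusted p = 0.127, limma) and 0.68 for NEBNext libraries (adjusted p = 0.343). Within each set KO lay above WT without overlap, as did 17.9% of tested genes in the Ovation and 8.46% in the NEBNext libraries. Within litter 1 of the Ovation set, KO S_258 was at 13.9 CPM and its WT littermates at 8.47 and 8.66. WT S_254, with 1 mutant Meis1 allele, did not stand out from WT S_252.

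The side of the threshold on which Hoxc4 fell depended on the fit. Its adjusted p (limma) was 0.0374 without the set term, 0.036 with limma's robust variance option and 0.0484 without KO 4. With a block for the replicate numbers 3 and 4 of the NEBNext set, it was 0.0321. It was between 0.0533 and 0.0933 under other scalings, filters and pseudocounts, with somite stage as covariate and with no variance trend. With litter 1 alone for the Ovation set it was 0.185. It was 0.208 without KO 3 and KO S_284 together. Leaving out each library in turn moved the adjusted p between 0.0484 and 0.15, and the log2 fold change between 0.62 and 0.83.

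**Figure D1:**
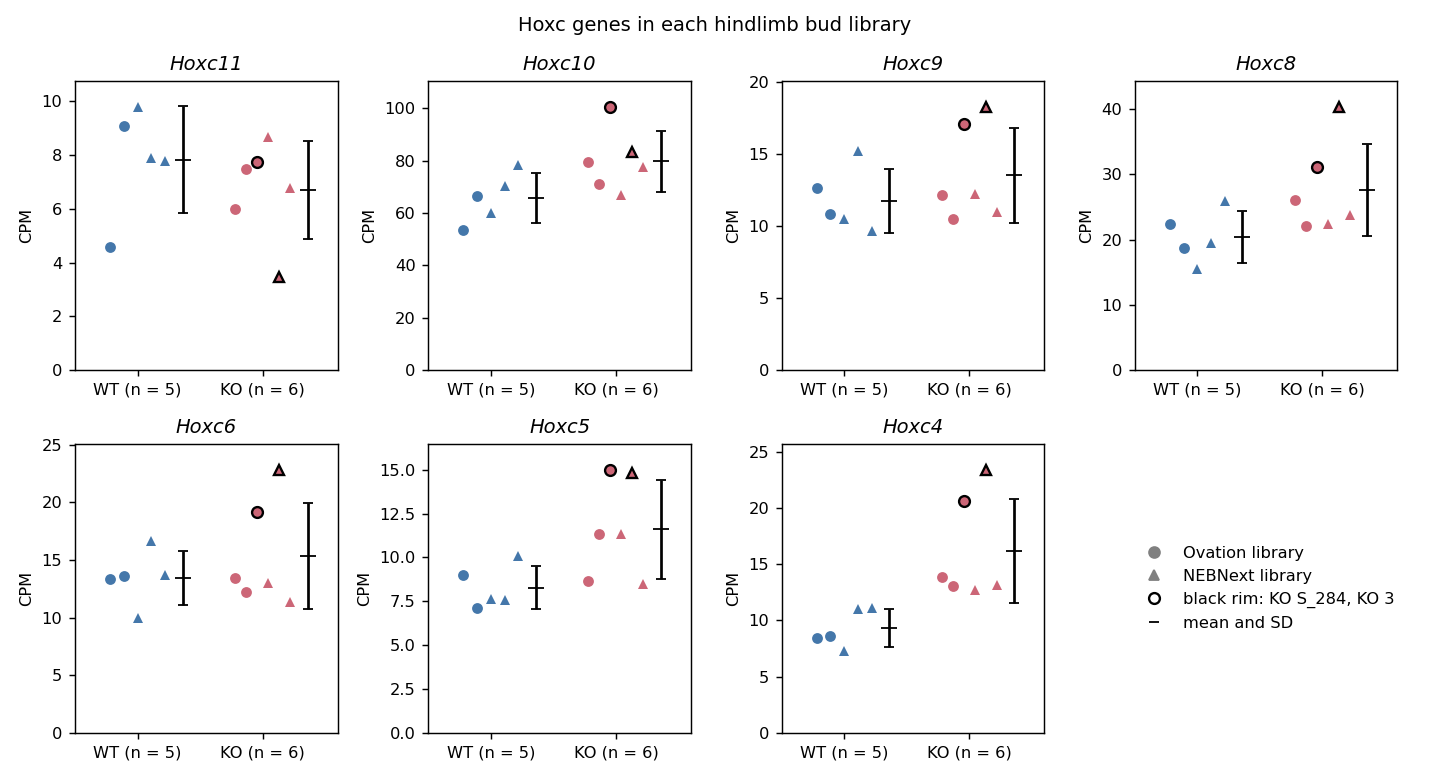
CPM of each Hoxc gene in each library, WT in blue (n = 5) and KO in red (n = 6), circles for Ovation and triangles for NEBNext libraries, with the mean and SD beside each group; black rims mark KO S_284 and KO 3. All 6 KO libraries lie above the WT libraries for Hoxc4 alone of the 7, and both rimmed libraries are the 2 highest of all 11 for every gene but Hoxc11.

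Hoxc5, next in the cluster and also a gene of the forelimb and neck level, was at 8.97 and 7.13 CPM in the Ovation WT libraries S_252 and S_254, and at 7.65, 7.58 and 10.1 CPM in WT 1, WT 3 and WT 4. KO embryos had 8.66, 11.3 and 14.98 CPM in S_258, S_280 and S_284, and 11.3, 14.8 and 8.47 CPM in KO 2, KO 3 and KO 4. KO S_258 and KO 4 lay within the WT range and the other 4 KO libraries above it. Hoxc5 had a log2 fold change of 0.44 (SE 0.18, adjusted p = 0.254, limma), with 0.48 for Ovation and 0.41 for NEBNext libraries.

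Hoxc6, known for its expression at the forelimb and thoracic level, had overlapping groups. It was at 13.4, 13.6, 9.98, 16.6 and 13.7 CPM in WT S_252, S_254, 1, 3 and 4. The KO libraries had 13.5, 12.2, 19.2, 13.01, 22.8 and 11.4 CPM in S_258, S_280, S_284, 2, 3 and 4. KO S_284 and KO 3 alone exceeded the highest WT library, WT 3. Hoxc6 had a log2 fold change of 0.15 (95% confidence interval -0.25 to 0.56, adjusted p = 0.794, limma). It was 0.004 without KO 3 and -0.091 without both of these libraries.

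Hoxc8, a gene of the thoracic level, was at 22.5, 18.8, 15.5, 19.5 and 25.9 CPM in WT S_252, S_254, 1, 3 and 4. KO values were 26.1, 22.1, 31.1, 22.4, 40.3 and 23.8 CPM in S_258, S_280, S_284, 2, 3 and 4. KO S_258, KO S_284 and KO 3 lay above the highest WT library, and the other 3 KO libraries within the WT range. Hoxc8 had a log2 fold change of 0.42 (SE 0.17, adjusted p = 0.263, limma), with 0.34 for Ovation and 0.48 for NEBNext libraries.

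Hoxc9, which in the spinal cord marks the thoracic level, was at 12.6, 10.8, 10.5, 15.2 and 9.63 CPM in WT S_252, S_254, 1, 3 and 4. Among KO libraries it was at 12.2, 10.5, 17.1, 12.2, 18.2 and 10.99 CPM in S_258, S_280, S_284, 2, 3 and 4. As for Hoxc6, KO S_284 and KO 3 alone exceeded the WT range. Hoxc9 had a log2 fold change of 0.18 (95% confidence interval -0.19 to 0.56, adjusted p = 0.7, limma), and of -0.018 without these 2 libraries.

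Hoxc10, a marker of the HL and lumbar level, was at 53.5 and 66.4 CPM in the Ovation WT libraries S_252 and S_254, and at 60.1, 70.3 and 78.3 CPM in WT 1, WT 3 and WT 4. In KO embryos it was at 79.6, 71.0 and 100.4 CPM in S_258, S_280 and S_284, and at 67.0, 83.2 and 77.4 CPM in KO 2, KO 3 and KO 4. KO lay above WT among Ovation libraries, against the same 17.9% of genes, and the groups overlapped in the NEBNext set. Hoxc10 had a log2 fold change of 0.28 (SE 0.12, adjusted p = 0.27, limma), with 0.47 for Ovation and 0.13 for NEBNext libraries. The difference between the sets was -0.34 (SE 0.22, interaction adjusted p = 0.537, limma) and did not pass.

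Hoxc11, the other HL-level gene, was at 4.60, 9.09, 9.78, 7.91 and 7.80 CPM in WT S_252, S_254, 1, 3 and 4. KO libraries had 6.0, 7.48, 7.75, 8.69, 3.46 and 6.79 CPM in S_258, S_280, S_284, 2, 3 and 4. No KO library exceeded the WT range, KO 3 lay below it, and the lowest WT library, S_252, was lower than 5 of the 6 KO libraries. Hoxc11 had a log2 fold change of -0.22 (95% confidence interval -0.73 to 0.29, adjusted p = 0.754, limma), with 0.11 for Ovation and -0.48 for NEBNext libraries, so its direction differed between the sets (interaction adjusted p = 0.642). Single libraries moved the value for all 11, which was -0.01 without KO 3 and -0.43 without WT S_252.

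**Figure D2:**
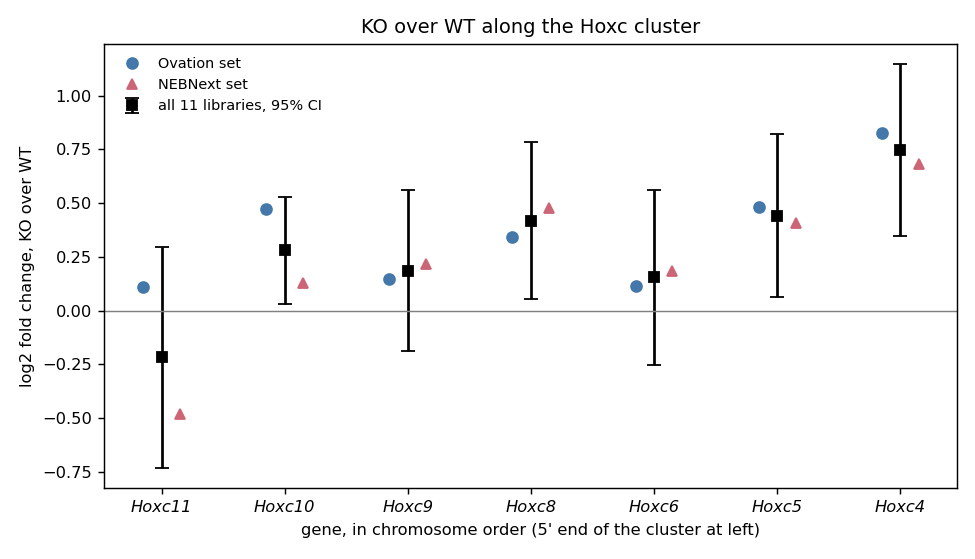
Log2 fold change, KO over WT, of each gene in chromosome order with the 5′ end of the cluster at left: squares with 95% confidence intervals for all 11 libraries, circles for the Ovation set and triangles for the NEBNext set. Values run from -0.22 for Hoxc11 to 0.75 for Hoxc4, and both sets lie above 0 for 6 of the 7 genes.

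Along the cluster the fold changes did not run in an even order. They were 0.75, 0.44 and 0.15 for Hoxc4, Hoxc5 and Hoxc6, then 0.42, 0.18 and 0.28 for Hoxc8, Hoxc9 and Hoxc10, and -0.22 for Hoxc11. Their median was 0.28, where the median of all tested genes was 0.00038. The members' median was 0.34 for Ovation and 0.21 for NEBNext libraries, and that of all genes 0.0145 and -0.0064. Fold changes were above 0 for 6 of the 7 genes over all libraries, where 50.2% of tested genes were, and for 6 of the 7 in both sets, where 26.3% were. No member passed the test for a different KO effect in the 2 sets (limma interaction, adjusted p from 0.537 to 0.968), and none of the 12996 genes did, though 1694 (13%) had an unadjusted p under 0.05, none of them a member.

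The summed CPM of the 7 genes was 121 to 157 in WT (137 ± 15.4, SD) and 147 to 211 in KO (171 ± 29.7). The 2 highest sums were 211 in KO S_284 and 206 in KO 3, and the other 4 KO libraries, at 147 to 160, stood near the upper end of WT. The part of Hoxc4 in the sum separated the groups. Hoxc4 made up 6.04% to 7.43% of the sum in WT and 8.65% to 11.3% in KO. Its ratio to Hoxc10 in CPM was 0.121 to 0.158 in WT and 0.170 to 0.281 in KO, again without overlap, and its ratio to Hoxc11 was 0.746 to 1.84 and 1.47 to 6.76, with overlap. These ratios hold the same Hoxc4 values as the comparison above and are no separate evidence.

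KO 3 and KO S_284, from different sets, had the 2 highest values of all 11 libraries for 6 of the 7 genes. They were singled out after their values were seen, so what follows is a description with no test. Against the mean of the other 4 KO libraries on the log2 scale, KO 3 was higher by 0.80 for Hoxc4, 0.57 for Hoxc5, 0.84 for Hoxc6, 0.76 for Hoxc8 and 0.65 for Hoxc9. It was higher by 0.18 for Hoxc10 and differed by -0.96 for Hoxc11, so that the sign turned within the cluster. KO 3 lay above all 4 of these libraries for 6 of the 7 genes and below all 4 for 1, where it did so for 19.1% and 19% of all tested genes. KO S_284 was higher by 0.39 to 0.62 for Hoxc4 to Hoxc9, by 0.45 for Hoxc10 and by 0.10 for Hoxc11, and lay above all 4 for 6 of the 7 genes, where it did so for 20.2% of all genes.

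**Figure D3:**
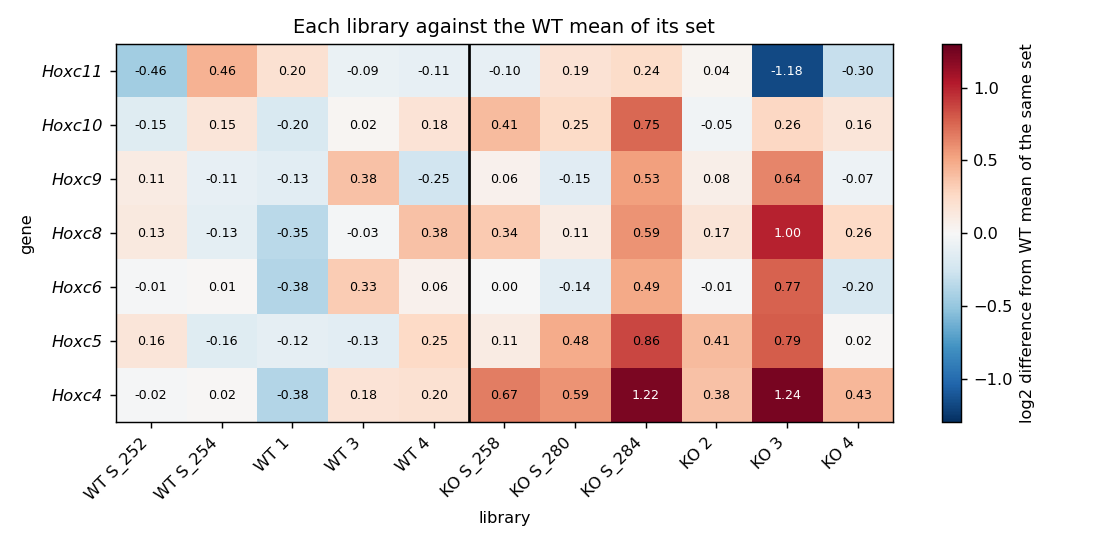
Log2 difference of each library, in columns, from the WT mean of its own set for each Hoxc gene, in rows by chromosome order, with the value in each cell and a line between WT and KO. Hoxc4 is above 0 in all 6 KO libraries, from 0.38 in KO 2 to 1.24 in KO 3, and KO 3 holds both that value and the lowest of all, -1.18 for Hoxc11.

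Hox genes of other clusters also stood apart in these 2 libraries. In KO S_284, 9 of 9 Hoxb genes of groups 1 to 9, 5 of 7 Hoxa genes and 2 of 4 Hoxd genes of these groups lay above all 4 other KO libraries. Of all tested genes, 20.2% did so in KO S_284. In KO 3, 4 of 9 Hoxb, 3 of 7 Hoxa and 1 of 4 Hoxd genes of these groups lay above all 4, and 2 of 4 Hoxd genes below all 4. Of all tested genes, 19.1% lay above all 4 in KO 3 and 19% below. The medians for these Hoxb, Hoxa and Hoxd genes were 0.40, 0.0059 and -0.29. Of Hoxd10 to Hoxd13, which act in the distal and posterior bud, 4 of 4 in KO 3 and 3 of 4 in KO S_284 lay below all 4, as did 19% and 19.7% of all genes in these libraries. Of Hoxa10, Hoxa11 and Hoxa13, 3 of 3 in KO 3 and 1 of 3 in KO S_284 lay below all 4, beside the same shares of all genes. Hoxd13, needed for digits, was at 15.02 CPM in KO 3 and 24.3 in KO S_284 against 39.3 to 61.6 in the other KO libraries, and at 32.9 to 50.2 in WT.

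Markers of other cell types were set beside these 2 libraries, since Hoxc genes are also active in the trunk. Neural tube markers (5 of 16 analysed, none at 0) summed to 4.39 CPM in KO 3 and 5.10 in KO S_284, the 2 lowest of all libraries, against 5.78 to 9.97 in the other KO libraries and 8.29 to 14.4 in WT. Somite markers (6 of 11) summed to 14.4 CPM in KO 3, the lowest, and 81.6 in KO S_284, the highest in KO, where WT ranged from 30.7 to 98.3. KO 3 and KO S_284 thus lay at opposite ends of the KO range for somite markers and together at the low end for neural tube markers. Neural crest markers (6 of 10) summed to 89.2 CPM in KO 3, 79.5 in KO S_284 and 89.2 in KO S_258, against 47.4 to 58.9 in the other KO libraries and 39.6 to 59.8 in WT. Intermediate mesoderm markers (9 of 9) summed to 27.2 CPM in KO 3 and 54.4 in KO S_284, with 46.1 to 62.1 in the other KO libraries and 28.7 to 40.8 in WT. KO S_284 also stood at the end of all 11 libraries for muscle precursor markers (5 of 7, highest at 78.1 CPM), endothelial markers (12 of 12, highest at 349.6) and erythroid markers (9 of 9, lowest at 1384). Surface ectoderm markers (12 of 12) placed both libraries within the range of the other 4 KO libraries. The part of these cell types in the Hoxc values was not tested. Without KO 3 and KO S_284, Hoxc4 had a log2 fold change of 0.51 (adjusted p = 0.208, limma), and the median of the 7 was 0.18.

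**Figure D4:**
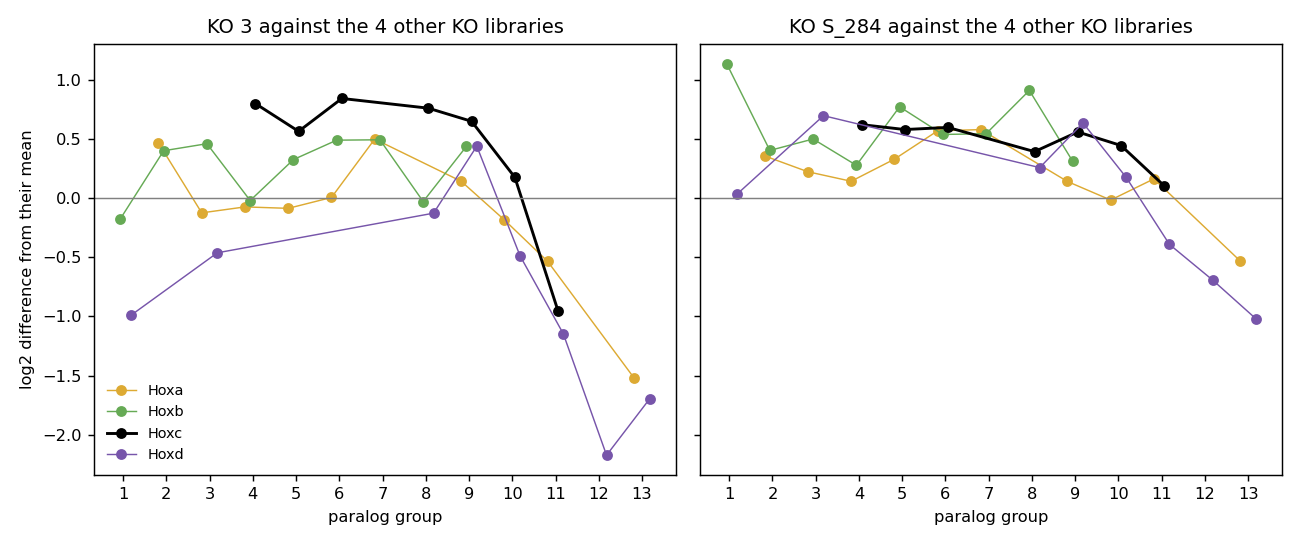
Log2 difference of KO 3 (left) and KO S_284 (right) from the mean of the 4 other KO libraries for the Hox genes described here, by paralog group on the horizontal axis, with a line per cluster and Hoxc in black. In KO 3 Hoxc6 is at 0.84 and Hoxc11 at -0.96, and Hoxd13 is at -1.70 in KO 3 and -1.02 in KO S_284.

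Over the 11 libraries, after the mean of each set was subtracted, members other than Hoxc11 varied together. Pearson's r on log2(CPM + 0.5) was 0.46 to 0.91 in their 15 pairs (median 0.70), highest for Hoxc4 with Hoxc8. In the 6 pairs with Hoxc11 it was -0.72 to -0.10 (median -0.51). The libraries share their scaling and KO 3 and KO S_284 weigh in each pair, so these are descriptions. The genes whose pattern was most like the mean of the 7 were Kcnh2 (r = 0.93), which encodes a potassium channel, 2510009E07Rik (0.91), Zfp939 (0.91), 4930402H24Rik (0.90) and Plxna2 (0.90), a semaphorin receptor, each over 11 libraries. These 5 genes were picked for the highest r among all tested genes outside the members, so their r is no test. None passed between KO and WT (adjusted p from 0.187 to 0.334, limma), and Kcnh2 was low, at 2.10 to 7.39 CPM over the 11 libraries. Plxna2 ranged from 57.4 to 88.9 CPM over WT and from 70.2 to 121 over KO libraries, highest in KO 3.

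The paralogs of the members, genes of the same number in other clusters with like homeodomains, did not pass the test either. In group 4 the log2 fold change was 0.35 for Hoxa4 (adjusted p = 0.450, limma) and 0.30 for Hoxb4 (adjusted p = 0.404), beside 0.75 for Hoxc4. In group 5 it was 0.28 for Hoxa5 and -0.13 for Hoxb5, and in group 6 -0.07 for Hoxa6 and 0.10 for Hoxb6. Genes of these groups pattern the neck and upper trunk. In group 8 Hoxb8, a gene of the thoracic level, ranged from 3.25 to 7.54 CPM over WT and from 7.56 to 15.9 over KO libraries. KO thus lay narrowly above WT without overlap, as it did for 1.82% of tested genes. Hoxb8 had a log2 fold change of 0.72 (adjusted p = 0.160, limma), with 1.39 for Ovation and 0.18 for NEBNext libraries, while Hoxd8 was at -0.08. In groups 9 to 11 the Hoxa, Hoxb and Hoxd genes were between -0.13 and 0.12. Differences between paralogs were not tested.

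By cluster, 1 of 10 Hoxa genes described here passed as higher in KO and none as lower, where 1.04% of all genes passed as higher, 0 of 9 Hoxb and 0 of 8 Hoxd genes passed, and their medians were 0.26, 0.20 and -0.02. The Hoxa gene that passed was Hoxa3, known for its part in pharyngeal arches. It ranged from 11.9 to 14.2 CPM over WT and from 15.9 to 22.1 over KO libraries (log2 fold change 0.52, adjusted p = 0.0287, limma). Hoxa3 lost its call without any of 7 of the 11 libraries in turn (WT S_252, WT S_254, WT 1, WT 3, KO S_280, KO S_284 or KO 2, adjusted p up to 0.0995). Hoxa2 and Hoxa13 had larger log2 fold changes than Hoxc4, 0.93 (adjusted p = 0.0504, limma) and 0.92 (adjusted p = 0.171), and did not pass.

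**Figure D5:**
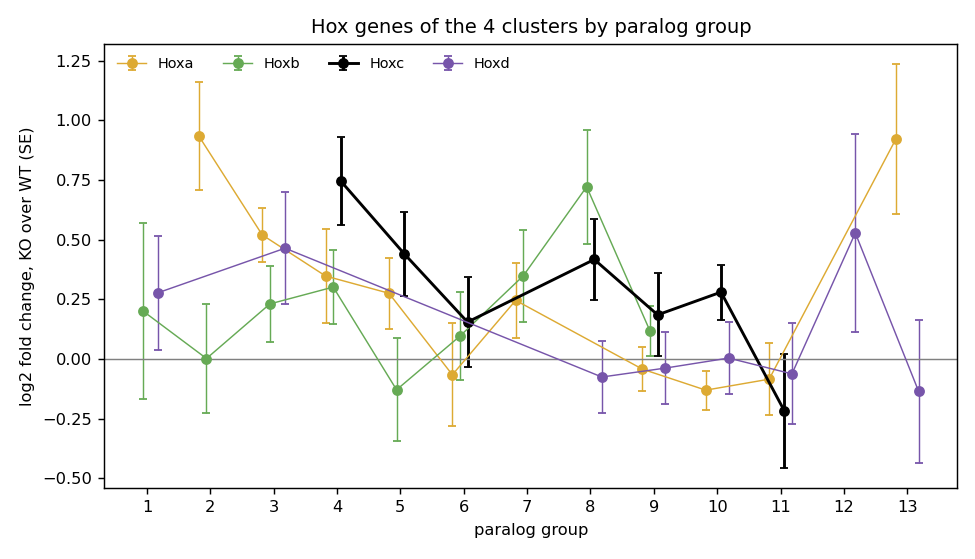
Log2 fold change, KO over WT, with its SE for the Hox genes described here, of the 4 clusters, by paralog group, with a line per cluster and Hoxc in black. Hoxc4 at 0.75 stands beside Hoxa4 at 0.35 and Hoxb4 at 0.30, and genes of groups 9 to 11 lie between -0.22 for Hoxc11 and 0.28 for Hoxc10.

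Of the TALE cofactors with which Hox proteins bind DNA, 2 of 7 genes described here passed as higher in KO and 1 as lower, where 1.04% and 1.05% of all genes did, with a median of 0.13. Pknox2, a relative of Meis, ranged from 8.86 to 22.05 CPM over WT and from 30.4 to 45.98 over KO libraries (log2 fold change 1.37, adjusted p = 0.00592, limma) and passed without each library in turn. Pbx3, which encodes a partner of Hox proteins, had a log2 fold change of 0.60 (adjusted p = 0.025). Pknox1 ranged from 27.3 to 34.4 CPM over WT and from 19.9 to 26.9 over KO libraries (log2 fold change -0.45, adjusted p = 0.0359). Pbx3 lost its call without any of WT S_254, WT 1, WT 3, KO S_284 or KO 2 (adjusted p up to 0.0792) and Pknox1 without each library but WT 4 and KO S_280 (up to 0.105).

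Of known regulators of Hox clusters, 1 of 18 tested genes passed as higher in KO, where 1.04% of all genes did, and none as lower, with a median of 0.06. That gene was Bmi1, whose protein belongs to a Polycomb complex that silences Hox genes. Bmi1 ranged from 55.4 to 62.5 CPM over WT and from 72.3 to 91.7 over KO libraries. KO lay above WT without overlap, as it did for 1.82% of tested genes. Bmi1 had a log2 fold change of 0.41 (adjusted p = 0.0112, limma) and passed without each library in turn.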

How the data were processed

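RNA-seq of HL buds was made from 5 WT and 6 KO embryos. The authors trimmed reads with cutadapt 1.3, estimated gene counts with RSEM 1.2.3 on GRCm38, scaled them by TMM, applied the batch correction ComBat and dropped genes that did not reach 1 CPM in 4 or more samples; the deposited CPM are therefore not counts, whole reads cannot be recovered from them, and which batches ComBat corrected and whether it was given the genotype are not given in the sources used here. Correction can shrink or spread differences within a set, and p-values do not carry its error. Groups were taken from the labels, with embryos as replicates. With R 4.3.3 and limma 3.58.1, log2(CPM + 0.5) of the 12996 genes whose deposited CPM reached 1 in 4 or more libraries (724 left out; all 7 Hoxc genes kept) was fitted on genotype and set with a variance trend, two-sided, with Benjamini-Hochberg adjustment over all tested genes; the code was tested on simulated data. CPM per kilobase used the merged exonic length in GENCODE M21. Named were all members and their paralogs in groups 4 to 11. Called genes of the Hox, TALE and regulator lists and the 5 genes most alike in pattern were also named. Hoxa2, Hoxa3, Hoxa13, Hoxd13, HL bud markers and marker sums stand beside them. The members and lists were chosen with earlier results of these data known. Some genes of these lists are not reported here.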

Additional observations from a re-analysis of the deposited data

How the results depend on the processing

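The count of Hoxc genes past the threshold, 0 of 7, became 1, Hoxc4, in 3 alternatives that kept all libraries: no set term, robust empirical Bayes, and the replicate block. It was 0 to 1 when each library was left out in turn, the 1 coming without KO 4, and 0 in the other alternatives. The median log2 fold change of the 7 stayed between 0.21 and 0.34 without each library. Labels number WT 3, WT 4, KO 3 and KO 4 alike, but only these 2 pairs share a number, and no litter is given for them. The r of their deviations was 0.20 and -0.04, against -0.088 for WT 3 with KO 4 and -0.16 for WT 4 with KO 3. These values cannot settle whether embryos were paired, so the replicate block is not taken as a pairing by design. With this block Hoxc4 had an adjusted p of 0.0321 (limma), and no other member's call changed. Hoxc11 turned to 0.11 in the Ovation set alone. Leaving out KO S_284 and KO 3 together, chosen after seeing the data, turned Hoxc6 to -0.091 and Hoxc9 to -0.018. Genes called over the whole table numbered 272, against 184 with no variance trend, 402 with no set term, 101 with litter 1 alone for the Ovation set, 150 in the Ovation set, 3 in the NEBNext set, 103 without KO S_284 and KO 3, and 106 to 340 without each library. Other scalings moved the median of all genes by no more than 0.0057 on the log2 scale. Depth is unknown, so counting error cannot be given, and the smaller fold changes, such as those of Hoxc6, Hoxc9 and Hoxc11, have intervals that reach to both sides of 0.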

Other observations

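Around the cluster, the 19 tested genes within 500000 bases outside it had a median log2 fold change of 0.04 (from -0.58 to 0.91), 14 of them above 0, and none passed the test (limma), where 2.09% of all genes did. Ppp1r1a, which encodes a phosphatase inhibitor, had the highest, 0.91 (adjusted p = 0.142), and Calcoco1 was at 0.47 (adjusted p = 0.162).

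Hotair, the long noncoding RNA read from the opposite strand between Hoxc12 and Hoxc11, was at 2.83, 3.19, 4.01, 2.93 and 3.47 CPM in WT S_252, S_254, 1, 3 and 4. In KO it was at 3.34, 5.67, 3.47, 6.48, 1.40 and 4.96 CPM in S_258, S_280, S_284, 2, 3 and 4. The groups overlapped, and the KO values spread more widely than the WT values, with KO 3 the lowest of all, as it was for Hoxc11. Hotair had a log2 fold change of 0.21 (adjusted p = 0.828, limma).

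Among the 9 HL bud markers, Msx1, which acts in the distal bud mesenchyme, alone passed the test as lower in KO (log2 fold change -0.69, adjusted p = 0.00275, limma), where 1.05% of all genes did. None passed as higher, where 1.04% of all genes did. The median log2 fold change of the 9 was 0.01, with 5 above 0, so it does not mean that each was unchanged. Nearest to the threshold among the rest were Fgf10 at -0.57 (adjusted p = 0.0828, limma), Prrx1 at 0.48 (0.0927) and Lmx1b at -0.44 (0.103). Isl1, which acts early in HL formation, was at 15.7 CPM in KO 3 and 29.8 in KO S_284, against 30.7 to 54.6 in the other 4 KO libraries and 17.4 to 39.7 in WT. KO 3 and KO S_284 thus lay below the other 4 KO libraries for Isl1, as they did for 19% and 19.7% of all tested genes. Tbx4 went the same way, at 48.6 CPM in KO 3 and 70.5 in KO S_284, against 72.0 to 81.5. Pitx1 did not, at 24.2 CPM in KO 3 and 25.2 in KO S_284, against 15.5 to 24.3. The other HL bud markers are not given by library here.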
